A study of Populus ussuriensis with 12 samples.

Results

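In roots of the northeast Asian poplar *Populus ussuriensis*, 61 of 39602 annotated genes stood strongly higher on excess zinc (Zn) in both wild-type plants and plants overexpressing the heat shock factor gene PuHSFA4a. They were chosen from the measured values by a fixed rule. The mean level over all 12 libraries had to be at least 2 CPM, the usual count of a gene relative to library size, here after TMM scaling, which evens out differences in library composition. The ratio of the mean level on Zn to the mean level on control medium, each with 0.5 CPM added, had to be at least 4 in both genotypes. The lowest of the 6 Zn libraries had to lie above the highest of the 6 control libraries. Of all genes, 21908 reached the level, 158 of these had the ratio in wild type, 76 in the overexpressor and 65 in both, and 4 of the 65 were dropped because Zn and control libraries overlapped. The Zn difference of these 61 genes is therefore given as a description, without support from a test.

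Zinc is an essential cofactor of many enzymes and transcription factors, and in excess it competes with other metals, iron above all, for uptake and binding sites. Plant roots handle a surplus by binding the metal to chelators such as nicotianamine, phytochelatins and metallothioneins, by storing it in vacuoles and by exporting it. Heat shock factors of class A4 are transcription factors, and members of this class in wheat and rice are known for raising cadmium tolerance. The files give gene IDs of the *P. trichocarpa* annotation without names, so no gene function is given for any of the 61 genes, their membership in metal transport or chelation families was not examined, and no sequences of them were used here. Marker genes for root tissue could not be looked up for the same reason.

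The 4 groups were wild type on control medium (WT control), wild type on excess Zn (WT Zn), PuHSFA4a-OE on control medium (OE control) and PuHSFA4a-OE on excess Zn (OE Zn), with 3 libraries each. All plants were grown in vitro and their roots were taken at 21 days of age. According to the protocol in the labels, 1 week of pre-culture preceded 2 weeks with 1.2 mM zinc sulfate. The same protocol is given for control samples too, and the zinc step was taken to concern the WT Zn and OE Zn groups. The labels do not give the promoter of the transgene, the number of transgenic lines, or whether libraries within a group were made from different plants. The p-values below therefore measure only the spread between these libraries, which may be technical. In whole roots, a changed share of a cell type and a changed amount of RNA per cell cannot be told apart.

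Libraries held 15594001 to 21206585 counts in total and detected 28609 to 29342 genes. A floor of 3 counts, which covers counting error only, was 0.142 to 0.192 CPM. Potri.011G071700, which the files do not annotate and which general knowledge assigns to HSFA4a, is not among the 61 genes (chromosome 11, 6828550 to 6830854, minus strand). Its level was 331, 347 and 340 CPM in OE control, 267, 238 and 266 CPM in OE Zn, and 33.1, 32.5 and 33.1 CPM in WT Zn. In the libraries labelled WT control it was 129, 164 and 37.1 CPM, so libraries 1 and 2 labelled WT control went partly against their label. Libraries also stood apart at the start of chromosome 13, where 239 tested genes in the first 2.3 Mb had a median log2 difference from the OE libraries of the same medium of -0.90 in WT control 3 and -0.89 in WT Zn 3. The median there was -0.23 and -0.49 in WT control 1 and 2, and 0.02 and 0.01 in WT Zn 1 and 2. A single one of the 61 genes, Potri.013G033200, lies in that stretch. How these differences between libraries bear on the results was not tested. With WT control 1 and 2 left out, 63 genes met the rule, 58 of the 61 among them, and with WT control 3 and WT Zn 3 left out, 54 did, 50 of the 61 among them.

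On Zn, the 61 genes together took 0.902%, 1.23% and 2.43% of all counts in the WT libraries and 0.598%, 1.21% and 0.595% in the OE libraries. On control medium they took 0.190%, 0.142% and 0.0782% in WT and 0.109%, 0.0908% and 0.115% in OE. The group means were 1.52% ± 0.802 (SD, n = 3) in WT Zn, 0.801% ± 0.354 (SD, n = 3) in OE Zn, 0.137% ± 0.0560 (SD, n = 3) in WT control and 0.105% ± 0.0127 (SD, n = 3) in OE control. Much of this share belonged to a single gene, Potri.013G101000. Without it the means were 0.458% ± 0.224 in WT Zn, 0.315% ± 0.0872 in OE Zn, 0.0492% ± 0.0113 in WT control and 0.0475% ± 0.00831 in OE control (SD, n = 3).

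The median Zn to control ratio of the 61 genes was 8.65 in WT and 5.94 in OE, and the ratio was larger in WT for 50 of them. It reached 8 in both genotypes for 16 genes and 16 in both for 1. The lowest Zn library stood at 2 times the highest control library or more for 51 genes, with a median gap of 3.31-fold, and the gap was under 1.5-fold for 4 genes. The fit across all genes called 61 of 61 higher in WT, where 15.3% of 25871 tested genes were called higher, and 60 of 61 in OE, where 8.52% were (edgeR quasi-likelihood F-test, adjusted p under 0.05). Since the rule used these contrasts, nothing is read from those counts. The gene not called in OE was Potri.002G017200 (adjusted p = 0.0876). Its Zn level was 1.25, 7.88 and 1.55 CPM in OE and 1.13, 0.975 and 12.2 CPM in WT, so a single library in each genotype stood far above the others.

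**Figure D1:**
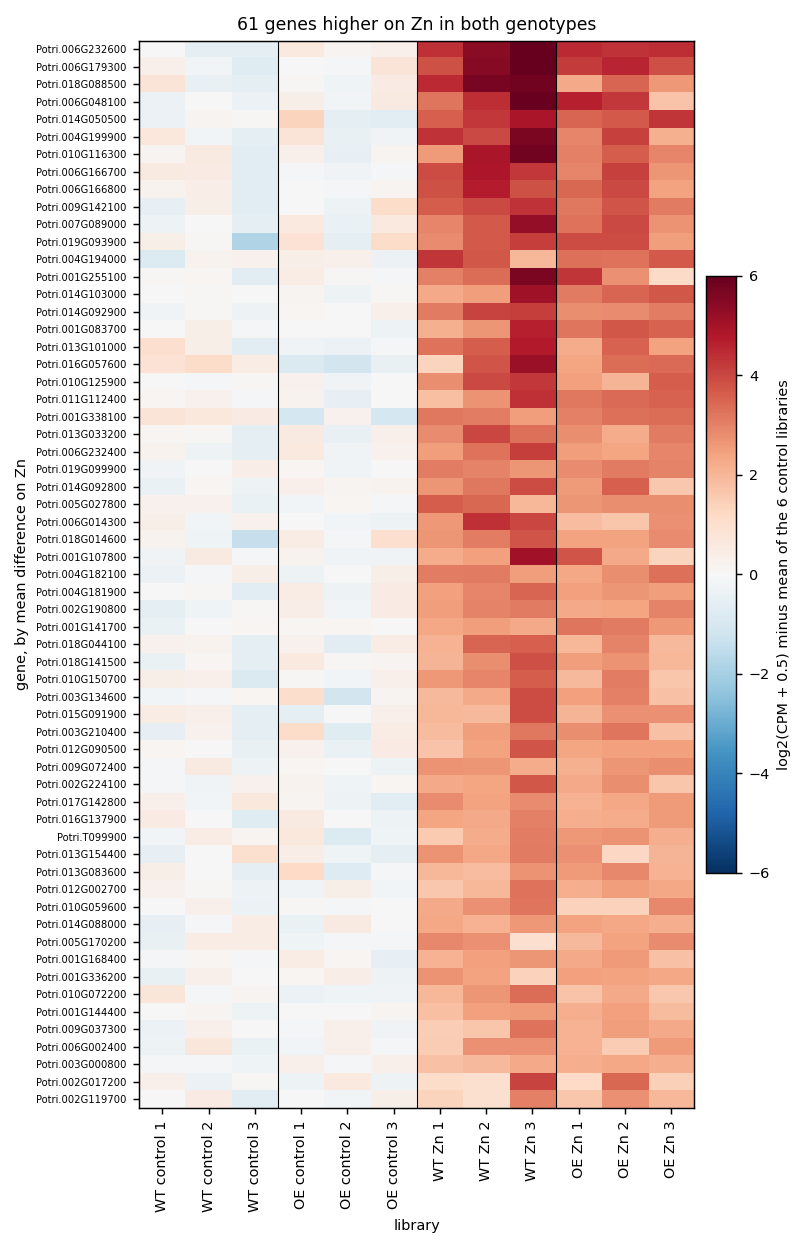
Level of each of the 61 genes (rows, ordered by their mean difference on Zn) in each of the 12 libraries (columns), as log2(CPM + 0.5) minus the mean of the 6 control libraries. Every row is higher in all 6 Zn columns than in the 6 control columns, as the rule requires, and most rows are highest in the WT Zn 3 column.

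Most of the 61 genes stood at low levels on control medium, which the ratio in the rule partly sets. Their median level on control medium was 1.27 CPM, against 14.5 CPM for all tested genes, while on Zn it was 14.8 CPM against 14.4 CPM. On control medium 28 genes averaged under 1 CPM, 24 between 1 and 10 CPM and 9 at least 10 CPM. No gene had 3 counts or fewer in all 6 control libraries, and 5 genes had no count in at least 1 of them. On Zn 8 genes averaged at least 100 CPM, 28 between 10 and 100 CPM and 25 under 10 CPM. For the genes near or under 1 CPM on control medium the ratio is held down by the 0.5 CPM that was added. With 0.1 CPM added 87 genes met the rule, and with 1 CPM added 46 did.

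**Figure D2:**
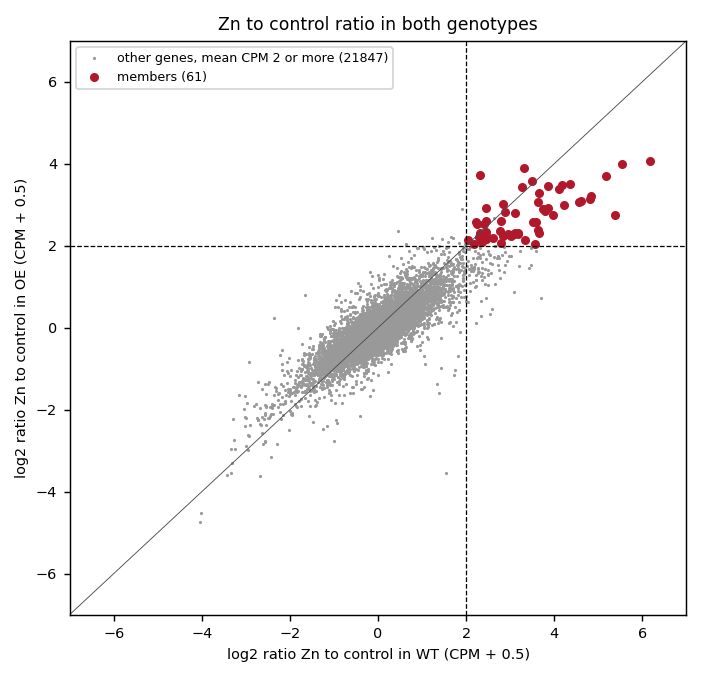
Zn to control ratio in WT (x axis) and in OE (y axis), both as log2 of the ratio of group means with 0.5 CPM added, for every gene with a mean level of at least 2 CPM. The 61 chosen genes (red) lie at a ratio of at least 4 on both axes, and 50 of them lie below the diagonal, where the ratio was larger in WT.

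Potri.013G101000 (chromosome 13, 11347121 to 11349338, minus strand) was the gene with the highest level of all on Zn, ranking 1 by mean CPM, and ranked 81 on control medium. In WT its level was 1331, 865 and 417 CPM on control medium and 6396, 8294 and 17918 CPM on Zn. In OE it was 574, 527 and 613 CPM on control medium and 3085, 7817 and 3511 CPM on Zn. The Zn libraries were thus spread over a wide range in both genotypes, with WT Zn 3 at the top, and the ratio was 12.5 in WT and 8.40 in OE. Per length, in the authors' FPKM, it stood at 9343 ± 5302 in WT Zn and 4123 ± 2236 in OE Zn (SD, n = 3).

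Potri.010G150700 (chromosome 10, 15923437 to 15924852, plus strand) was the second most abundant of the 61 on Zn, ranking 37 among all genes there and 802 on control medium. Its WT level was 223, 217 and 95.0 CPM on control medium and 1062, 1330 and 2178 CPM on Zn, and its OE level was 184, 155 and 217 CPM on control medium and 679, 1489 and 561 CPM on Zn. WT Zn 3 was the highest Zn library, as in Potri.013G101000, where WT Zn 2 came next. In Potri.010G150700 OE Zn 2 came next. This gene shares its whole span with Potri.010G150500 on the same strand, whose ratio was 9.23 in WT and 2.83 in OE. Its ratio was 8.51 in WT and 4.90 in OE, and the OE ratio was 3.34, under the limit of the rule, without OE Zn 2. How reads were divided between overlapping genes is not given in the sources used here, so its values are uncertain.

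Potri.016G057600 (chromosome 16, 3860522 to 3862044, minus strand) had the most uneven WT libraries of the abundant genes. On Zn its WT level was 99.4, 529 and 1434 CPM, against 71.3, 82.9 and 53.5 CPM on control medium. In OE it was 201, 403 and 419 CPM on Zn and 21.24, 17.58 and 28.20 CPM on control medium. The WT Zn 1 library lay only just above the WT control libraries, and the WT ratio of 9.86 was 4.48 without WT Zn 3. The OE ratio was 14.96. On control medium all 3 OE libraries lay below all 3 WT libraries.

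Potri.019G093900 (chromosome 19, 12389740 to 12415896, minus strand) stood at 172, 315 and 423 CPM in WT Zn and at 367, 360 and 138 CPM in OE Zn. On control medium it stood at 30.0, 24.9 and 6.38 CPM in WT and at 44.4, 15.7 and 52.4 CPM in OE. The ranges of the genotypes overlapped on both media, and the ratio was 14.5 in WT and 7.60 in OE.

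Potri.001G141700 (chromosome 1, 11424280 to 11426064, plus strand) behaved differently from the other abundant genes. Its WT Zn libraries lay close together at 199, 228 and 196 CPM, and all 3 OE Zn libraries, at 376, 350 and 247 CPM, lay above them. On control medium it stood at 29.9, 39.9 and 43.6 CPM in WT and at 43.8, 43.6 and 39.7 CPM in OE, without a separation of the genotypes. The ratio was 5.44 in WT and 7.58 in OE. Its whole span is also covered by Potri.001G140800 on the same strand, so this gene's values are uncertain in the same way.

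Ranked by the smaller of their ratios in WT and OE, the genes at the top came from lower levels. Potri.006G232600 (chromosome 6, 24252200 to 24254376, minus strand) rose from 4.32, 2.79 and 2.73 CPM to 97.6, 201 and 521 CPM in WT, a ratio of 72.5. In OE it rose from 6.56, 4.71 and 5.35 CPM to 104, 95.7 and 99.9 CPM, a ratio of 16.6. The OE Zn libraries lay within a narrow range at the level of WT Zn 1, whereas the WT Zn libraries were spread widely, and the WT ratio was 39.4 without WT Zn 3 and 95.8 without WT Zn 1.

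Potri.006G179300 (chromosome 6, 19327697 to 19329076, plus strand) stood at 1.44, 0.912 and 0.464 CPM in WT control and at 22.2, 69.1 and 108 CPM in WT Zn, a ratio of 46.5. In OE it stood at 1.05, 0.986 and 2.20 CPM on control medium and at 28.9, 37.7 and 22.8 CPM on Zn, a ratio of 15.8. Again the WT Zn libraries were spread far more widely than the OE Zn libraries.

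Potri.006G048100 (chromosome 6, 3435767 to 3437243, plus strand) stood at 10.5, 25.0 and 71.5 CPM in WT Zn and at 28.7, 21.6 and 3.40 CPM in OE Zn, from 0.406 to 1.20 CPM in the 6 control libraries. Its ratio was 36.2 in WT, 18.2 without WT Zn 3 and 48.8 without WT Zn 1, and it was 13.04 in OE. OE Zn 3 was the lowest of the 6 Zn libraries. Potri.006G048100 lies inside the span of Potri.006G047200 on the opposite strand. Whether reads were counted by strand is not given in the sources used here.

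**Figure D3:**
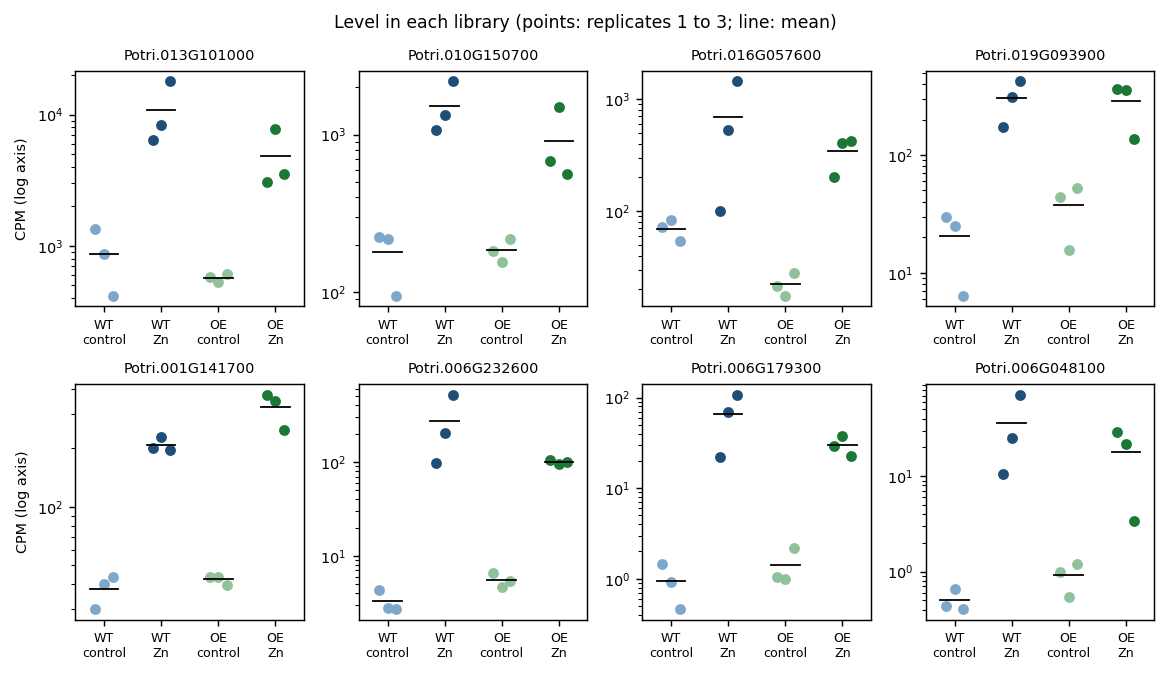
Level in each library, in CPM on a log axis, of genes named in the text, with 1 point per library and a line at the mean of the 3 libraries of a group. WT Zn 3, the rightmost WT Zn point, is the highest of its group in every panel except that of Potri.001G141700, which has 3 close WT Zn points below the 3 OE Zn points.

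Around the ratio limit of 4 the values ran on without a gap. The members with the lowest smaller ratio were Potri.003G000800, at 4.52 in WT and 4.10 in OE, Potri.018G014600, at 11.8 and 4.10, and Potri.002G119700, at 4.12 and 4.40. The place of Potri.002G119700 inside the limit rested on single libraries, since its WT ratio was 2.18 without WT Zn 3 and its OE ratio 3.40 without OE Zn 2. Just outside stood Potri.004G181700, at 4.27 and 3.94, Potri.001G005700, at 6.30 and 3.98, and Potri.010G071500, at 6.29 and 3.99. At the lower limit of level stood Potri.009G072400 with a mean of 2.14 CPM, Potri.002G017200 with 2.22 CPM and Potri.006G014300 with 2.68 CPM.

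The WT Zn libraries differed widely from each other in the 61 genes. The median SD of log2(CPM + 0.5) within a group was 0.739 in WT Zn, 0.392 in OE Zn, 0.377 in WT control and 0.341 in OE control, against 0.147, 0.145, 0.150 and 0.140 for all tested genes. The 61 genes stood far lower on control medium, at a median of 1.27 CPM against 14.5 CPM, where counting error is larger. On Zn their median was 14.8 CPM, against 14.4 CPM. They were not compared with genes of the same level. WT Zn 3 was the highest library of its group for 48 of the 61 genes, where it was so for 37.7% of all tested genes, and the highest of the 6 Zn libraries for 45, against 24.6%. WT Zn 1 was the lowest of its group for 43 genes, against 33.3% of all tested genes. The median difference from the other libraries of the group was 0.87 log2 units in WT Zn 3, -0.05 in WT Zn 2 and -0.93 in WT Zn 1. In OE the same differences were smaller, at -0.18, 0.22 and -0.05 in OE Zn 1, 2 and 3, and OE Zn 2 was the highest of its group for 32 genes, against 34.3%. Among control libraries, WT control 3 was the lowest of its group for 40 genes, against 36.4%, with a median difference of -0.36.

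The rule itself used these libraries, and a high library can carry a gene over the limit, so the genes were chosen again with each library left out. Chosen without WT Zn 3, 55 genes met the rule, 53 of them among the 61. WT Zn 3 lay above all 6 control libraries for 54 of the 55, where 29.4% of all tested genes did, and was the highest of the 6 Zn libraries for 38. Its median difference from WT Zn 1 and WT Zn 2 was 0.73 log2 units, with 41 of 55 genes above. Chosen without WT Zn 1, 61 genes met the rule, WT Zn 1 lay above every control library for all 61, against 26.9% of all tested genes, and it was the lowest of its group for 45 with a median difference of -0.93. WT Zn 3 thus stood above WT Zn 1 and WT Zn 2 for most genes also where it took no part in the choice. The low place of WT Zn 1 is in part set by the choice, which asks for high values in the Zn libraries kept. Left out in turn, OE Zn 1, 2 and 3 had median differences of -0.22, 0.06 and -0.39, and WT Zn 2 had -0.07. The chosen genes were also nearly the same, since 59 of those chosen without WT Zn 1 were among the original 61.

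Over all 12 choices, between 49 genes (without OE Zn 2) and 71 genes (without OE control 1) met the rule. In the library left out, 96.97% to 100% of these genes lay beyond all libraries of the other medium, where 24.1% to 29.9% of all tested genes did. The median ratio of the library left out to the mean of the other medium in its genotype, or its inverse for a control library, ran from 4.66 in OE Zn 3 to 13.2 in WT Zn 3. That ratio was at least 4 for 39 of 68 genes in OE Zn 3, 45 of 61 in WT Zn 1 and 51 of 71 in OE control 1. It was so for 61 of 64 genes in WT control 1. The lowest single value was 0.682, in OE control 1, so not every gene chosen from 11 libraries held in the remaining one. The libraries of the other medium had taken part in the choice.

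**Figure D4:**
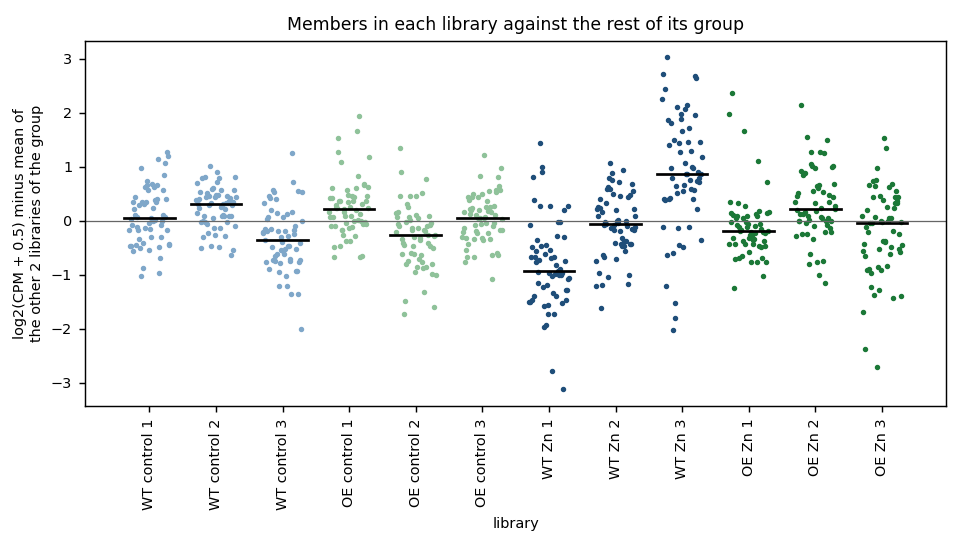
Difference of each library from the mean of the other 2 libraries of its group, on the log2(CPM + 0.5) scale, with 1 point for each of the 61 genes and library. The WT Zn 3 points lie mostly above 0, with a median of 0.87, and the WT Zn 1 points mostly below, with a median of -0.93, while the points of the other libraries are centred closer to 0.

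Not every one of the 61 genes followed the order of libraries in WT Zn. WT Zn 3 lay above the mean of WT Zn 1 and 2 for 49 genes and below it for 12, and these 12 were grouped after their values were seen. Potri.004G194000 (chromosome 4, 20833671 to 20835051, minus strand) showed the widest difference of the 12, at 44.4, 29.8 and 8.52 CPM in WT Zn 1, 2 and 3, that is -2.03 log2 units for WT Zn 3. In OE Zn it stood at 21.83, 21.18 and 29.21 CPM, and on control medium between 0.815 and 2.43 CPM. Potri.005G170200 (-1.80), Potri.005G027800 (-1.53) and Potri.001G336200 (-1.21) followed in that order. In OE the 49 genes were highest in OE Zn 2 for 28 and in OE Zn 3 for 14, and the 12 genes were highest in OE Zn 2 for 4 and in OE Zn 3 for 6.

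Pairs of genes were compared over the 6 Zn libraries, as deviations of log2(CPM + 0.5) from the mean of their genotype. The median correlation over all 1830 pairs was 0.48. It was 0.67 among the 49 genes higher in WT Zn 3, 0.29 among the 12 lower there and -0.49 over the 588 pairs across. WT Zn 3 made this split and is among the libraries compared, so nothing is read from these differences. The points share their libraries and depths.

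The members with the smallest and the largest spread over the Zn libraries mark the ends of this range. Potri.019G099900 (chromosome 19, 12964069 to 12966541, plus strand) stood at 16.25, 14.99 and 12.02 CPM in WT Zn and at 13.88, 16.88 and 14.99 CPM in OE Zn, with an SD of 0.169 on the log2 scale over the 6. Potri.014G088000 (chromosome 14, 6946716 to 6951800, minus strand) had an SD of 0.184, with 5.91 to 8.72 CPM on Zn. Both genes stood in a narrow range over the Zn libraries. In Potri.019G099900 WT Zn 3 was the lowest of its group, while in Potri.014G088000, at 7.04, 5.91 and 8.72 CPM in WT Zn, it was the highest. At the other end Potri.001G255100 (chromosome 1, 26479372 to 26481456, plus strand) had an SD of 1.52, at 5.90, 7.62 and 38.5 CPM in WT Zn and 15.02, 4.70 and 1.24 CPM in OE Zn. Potri.018G088500, described below, had an SD of 1.51.

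The comparison of genotypes, which the rule did not use directly, asks whether the overexpressor held these genes at another level. On Zn, OE was lower than WT for 49 of the 61 genes, against 50.5% of all tested genes, with a median log2 difference of -0.48 against -0.0024. None of the 61 passed the adjusted threshold, as none of all tested genes did (0% called, edgeR quasi-likelihood F-test), and the smallest adjusted p among the 61 was 0.195. At an unadjusted p under 0.05, 11 were lower and 1 was higher in OE, against 4.32% and 2.81% of all tested genes. DESeq2 called 2 of the 61, where it called 64 of 25871 tested genes, and limma-voom called none of either. All 3 OE Zn libraries lay below all 3 WT Zn libraries for 2 genes and above them for 1, against 6.73% and 6.07% of all tested genes.

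The direction on Zn leaned on WT Zn 3. Without that library OE was lower for 35 of the 61 genes with a median of -0.14, and for 35 of the 55 genes chosen without it, with a median of -0.16. None of the 61 was called without WT Zn 3, nor was any of 26130 tested genes.

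On control medium OE was lower for 24 genes and higher for 37, against 50.7% lower among all tested genes, with a median of 0.08 against -0.0031. None was called, as none of all tested genes was (0%), the smallest adjusted p was 0.494, and 1 gene was higher and 1 lower at an unadjusted p under 0.05, against 4.67% and 4.21%. The OE libraries lay above all WT libraries for 2 genes and below them for 3, against 7.43% and 7.29%. WT control 1 and 2, doubtful by their label, enter these values. Without both OE was lower for 18 genes, and none of the 61 was called, where 11 of 26698 tested genes were.

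Over both media OE was lower for 44 genes with a median of -0.16, against 50.6% of all tested genes and a median of -0.0017. None of the 61 was called, where 0.0232% of all tested genes were, and 6 were lower and 2 higher at an unadjusted p under 0.05, against 4.89% and 4.38%. Without WT Zn 3 the count of lower genes was 28, fewer than those higher, and the median was 0.06. Among the 55 genes chosen without WT Zn 3, 28 were lower, with a median of -0.0072. The count was also 28 of 61 when WT control 1 and 2 were left out.

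The log2 Zn difference was smaller in OE than in WT for 49 genes, against 51.5% of all tested genes, with a median interaction of -0.56 against -0.0091. The rule asked for a ratio of at least 4 in both genotypes, which keeps out genes that responded in a single genotype and so bears on this comparison. None of the 61 passed the test of the interaction, nor did any tested gene (0%), the smallest adjusted p was 0.779, and 6 genes had a smaller and 1 a larger Zn difference in OE at an unadjusted p under 0.05, against 3.07% and 3.22%. Without WT Zn 3 the Zn difference was smaller in OE for 39 of 61 genes, with a median of -0.22, and for 40 of the 55 genes chosen without that library, with a median of -0.44. When WT control 1 and 2 were left out it was smaller in OE for 50 of 61.

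Potri.018G088500 (chromosome 18, minus strand, with a span from 11580609 to 11739603 that holds 5 other annotated genes, each averaging 0.0084 CPM or less) had the smallest p on Zn. It stood at 25.5, 60.1 and 64.7 CPM in WT Zn and at 5.23, 12.5 and 6.75 CPM in OE Zn, without overlap. On control medium it stood at 1.49, 0.355 and 0.290 CPM in WT and at 0.717, 0.493 and 1.13 CPM in OE, with overlap. The difference on Zn was -2.61 log2 units (SE 0.45, edgeR unadjusted p = 0.000143, adjusted p = 0.195), so it did not pass over all tested genes. DESeq2 gave an adjusted p of 0.0233, where it called 64 of 25871 tested genes. Without WT Zn 1, its lowest WT Zn library, edgeR gave -2.93 log2 units with an adjusted p of 0.0460. In that fit 19 of 26143 tested genes were called. With any other single library left out edgeR did not call this gene.

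Potri.014G092900 (chromosome 14, 7243870 to 7244764, minus strand) had the smallest p for the interaction. It stood at 7.27, 14.6 and 15.7 CPM in WT Zn and at 5.77, 6.02 and 7.06 CPM in OE Zn, with the lowest WT library just above the highest OE library. Its interaction was -1.59 log2 units (SE 0.56, edgeR unadjusted p = 0.0139, adjusted p = 0.779) and did not pass. Its difference between genotypes on Zn was -0.99 log2 units (SE 0.26, edgeR unadjusted p = 0.00206, adjusted p = 0.555) and did not pass. Without WT Zn 1, its lowest WT Zn library, the difference was -1.27 log2 units with an edgeR adjusted p of 0.0460. In that fit 19 of 26143 tested genes were called, and no other setting tried called this gene.

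Potri.001G141700, described above, went the other way. Its OE level on Zn was 0.64 log2 units above WT (SE 0.16, edgeR unadjusted p = 0.00158, adjusted p = 0.538), and over both media it had the smallest p of the 61 genes, at 0.41 log2 units (SE 0.11, unadjusted p = 0.00404, adjusted p = 0.326). Neither passed in edgeR, while DESeq2 gave an adjusted p of 0.0331 on Zn.

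Potri.001G338100 (chromosome 1, 34176754 to 34177827, minus strand) had the smallest p on control medium. It stood at 1.29, 1.12 and 0.986 CPM in WT control and at 0, 0.767 and 0 CPM in OE control, so OE lay below WT in all 3 libraries. The fitted difference was -2.07 log2 units (SE 0.75, edgeR unadjusted p = 0.0175, adjusted p = 0.494), did not pass, and depends on the counts added to the libraries at 0. It ran from -7.43 without OE control 2, which leaves OE control at 0, to -1.48 without OE control 1. On Zn the gene stood at 8.97, 8.35 and 5.41 CPM in WT and at 8.11, 10.1 and 10.4 CPM in OE.

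To read the Zn difference in libraries that took no part in the choice, the rule was applied to the 6 libraries of a single genotype and the genes were read in the 6 libraries of the other. In WT alone 164 genes met the rule, the 61 among them. In OE 159 of these could be tested, all 159 were higher on Zn, and 134 were called higher in a fit of the OE libraries alone (84.3%, against 8.16% of 25153 tested genes, edgeR adjusted p under 0.05). Their median log2 difference in OE was 2.09, and 89 had a log2 difference of at least 2, as 221 of all genes tested there did.

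In OE alone 71 genes met the rule, 58 of them among the 61. All 71 were tested in WT and higher on Zn there, and 68 were called higher in a fit of the WT libraries alone (95.8%, against 13.2% of 25274 tested genes). Their median log2 difference in WT was 3.20, and 64 had a log2 difference of at least 2, as 370 of all genes tested there did. Genes chosen in either genotype thus stood higher on Zn in the other as well. Whether the medians of 2.09 and 3.20 differ was not tested.

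By library, the WT-chosen genes stood at a median of 1.72, 2.08 and 1.73 log2 units above the OE control mean in OE Zn 1, 2 and 3, and OE Zn 2 was the highest for 95 of 164. The OE-chosen genes stood at 2.45, 2.60 and 3.26 log2 units above the WT control mean in WT Zn 1, 2 and 3, and WT Zn 3 was the highest for 53 of 71. All 6 Zn libraries were thus well above control for genes chosen in the other genotype. When WT Zn 3 took no part in the choice, 115 genes were chosen in WT and 98 of them were called higher in the same fit of the OE libraries, in which 8.16% of all tested genes were.

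**Figure D5:**
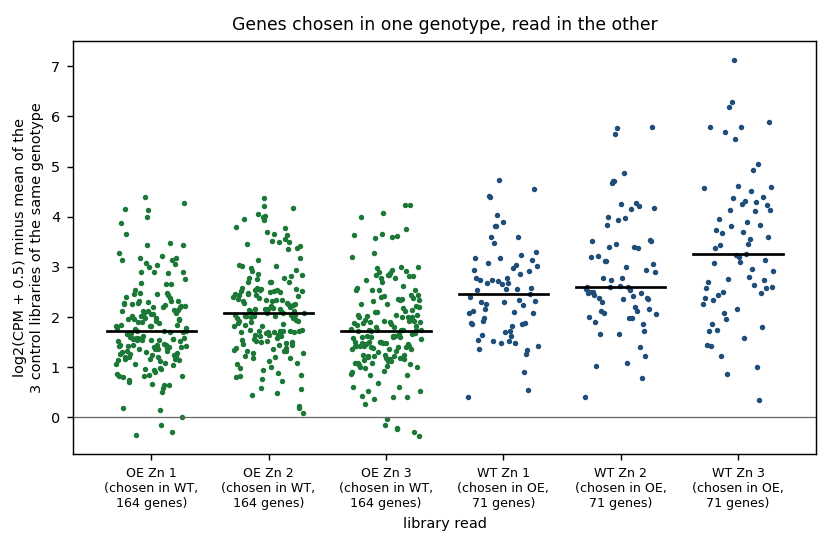
Genes chosen in 1 genotype and read in the Zn libraries of the other, as log2(CPM + 0.5) minus the mean of the 3 control libraries of the genotype read. The medians of the 164 WT-chosen genes lie at 1.72 to 2.08 in the 3 OE Zn libraries and those of the 71 OE-chosen genes at 2.45 to 3.26 in the 3 WT Zn libraries, all above 0.

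The 61 genes were spread over 18 of the 19 chromosomes, with none on chromosome 8, and 1 lay on an unplaced scaffold. Chromosomes 1 and 6 held 8 each, that is 13.1% of the 61, against 11.7% and 7.45% of all tested genes. None was named as new in the files, where 192 of the tested genes were. Their annotated length was shorter than that of other tested genes, with a median of 1416 bases against 1838 and quartiles of 1026 and 1871 against 1306 and 2532. A span no longer than the annotated length, which leaves no room for an intron, was found for 10 genes (16.4%, against 11.1%). A given number of transcripts of a short gene yields fewer counts, and 8 of the 10 genes highest by CPM on Zn were also among the 10 highest by FPKM.

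Some of the 61 lay side by side in the order of genes along a chromosome. There were 3 adjacent pairs. On chromosome 6, Potri.006G166700 (17089085 to 17091640) and Potri.006G166800 (17127838 to 17130449), both on the plus strand, stood 36198 bases apart, and Potri.006G232400 (24231577 to 24248868) and Potri.006G232600, both on the minus strand, 3332 bases apart. On chromosome 14, Potri.014G092800 (7241096 to 7242463) and Potri.014G092900, both on the minus strand, stood 1407 bases apart. A further pair on chromosome 4, Potri.004G181900 and Potri.004G182100, had a single gene between them, Potri.004G182000, whose ratio was 5.660 in WT and 2.498 in OE. The gene Potri.004G181700, just outside the ratio limit, lies in the same stretch.

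Adjacent genes had similar values in some pairs and not in others. Potri.006G166700 stood at 37.4, 70.5 and 46.7 CPM in WT Zn and at 18.6, 41.6 and 15.2 CPM in OE Zn, and its neighbour Potri.006G166800 at 44.6, 83.2 and 44.6 CPM in WT Zn and at 34.7, 49.3 and 16.6 CPM in OE Zn. In this pair library 2 was the highest in both genotypes and in both genes. Potri.006G232400 stood at 43.9, 73.6 and 138 CPM in WT Zn and at 44.5, 40.3 and 58.6 CPM in OE Zn, with the same order of WT libraries as Potri.006G232600 but a smaller range. Neighbouring genes can be near-identical copies whose reads are shared, which could not be examined without their sequences.

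Genes close to the 61 were counted as well. Within 2 positions on either side lay 228 other genes, 143 of them tested, of which 141 did not overlap one of the 61. Of these 141, 36 were called higher on Zn in WT (25.5%, against 15.3% of all tested genes), 25 in OE (17.7%, against 8.52%) and 23 in both (16.3%, against 6.84%). These shares are descriptions, and the neighbours are not independent of one another.

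Other annotated genes overlapped 8 of the 61, on the same strand for 6. For 4 of these 6 the overlapping gene was itself expressed. These were Potri.001G141700 and Potri.010G150700, whose overlapping genes averaged 71.3 and 202 CPM over the 12 libraries, and Potri.009G142100 and Potri.010G059600, whose overlapping genes averaged 36.5 and 488 CPM. Counts of these genes depend on how the authors' counting treated shared bases. Potri.006G047200, on the opposite strand over the whole span of Potri.006G048100, averaged 13.95 CPM, against 13.74 CPM for Potri.006G048100. Counts of Potri.006G048100 are uncertain too, because whether reads were counted by strand is not known.

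Potri.013G033200, the gene at the start of chromosome 13 (2197058 to 2198427, minus strand), stood at 5.01, 11.9 and 7.12 CPM in WT Zn and at 4.79, 3.03 and 6.13 CPM in OE Zn. On control medium it stood at 0.336, 0.304 and 0 CPM in WT and at 0.607, 0.0548 and 0.441 CPM in OE. WT Zn 3, in which the surrounding genes were low, lay between the other WT Zn libraries. The WT ratio was 11.9 and the OE ratio 5.94.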

How the data were processed

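Root RNA was isolated by a CTAB method and libraries were made with a TruSeq kit, per the labels' protocols. The submitters' processing notes list TopHat2 2.1.1 for alignment and HTSeq 0.6.0 for counts. What build was used, whether counting was by strand and how multiply mapped reads were treated is not given in the sources used here. Coordinates are those of the deposited files, and IDs are printed without their common ending v3.0.

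The authors' deposited count column is whole but was treated as an estimated count. It equals the count implied by the authors' normalized value, a signal on the count scale, for 64.5% to 65.7% of detected genes, and is 1 above it for 31.2% to 32.4%. The authors' FPKM values served only to set levels per length. Counts were used as deposited.

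Counts were analysed in R 4.3.3 with edgeR 4.0.16 (filterByExpr leaving 25871 genes, TMM scaling, 4 group means over 12 libraries, robust quasi-likelihood F-test, Benjamini-Hochberg adjustment over all tested genes, threshold 0.05). DESeq2 1.42.0, limma-voom 3.58.1, other scalings and filters, and leaving out libraries were tried. The fit and the rule were tested on simulated data. Groups come from the titles, and replicate numbers follow deposit order.

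The 61 genes, the lists and the tests were chosen with earlier results of these data known, the boundary at the start of chromosome 13 included. Genes named are the 5 most abundant on Zn, the 3 with the largest smaller ratio, the 3 on either side of the ratio limit, the smallest p of each genotype contrast, adjacent genes, and the 2 with the smallest and largest spread. Other genes named were chosen after their values were seen. Lists of gene functions and cell type markers could not be filled without gene names and were not tested.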

Additional observations from a re-analysis of the deposited data

How the results depend on the processing

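The size of the set followed the limits of the rule. With a ratio of at least 3, 116 genes met it, all 61 among them, and with a ratio of at least 8, 16 did. Leaving out each library in turn gave 49 to 71 genes, and the other settings tried gave 41 to 87. Between genotypes on Zn, 0 of the 61 genes were called by edgeR and 2 by DESeq2 (64 of 25871 tested genes), and leaving out each library gave 0 to 2, the 2 without WT Zn 1 (19 of 26143 tested genes). The count of genes lower in OE over both media, 44, was 28 to 48 with 1 library left out. It was 28 when WT control 1 and 2 were left out, and 28 when WT control 3 and WT Zn 3 were, alternatives chosen after seeing the data. The cause was not tested. Leaving out both WT control 1 and 2, which keeps a single WT control library assumed to vary like the others, left 49 of the 61 genes called higher on Zn in WT, with 4866 of 26698 tested genes called in either direction. Leaving out each library gave 59 to 61 called in WT, with 6025 to 7856 of all genes called in either direction, and 53 to 61 in OE, with 2200 to 4766. Genes chosen in WT and called in OE numbered 98 to 153, and genes chosen in OE and called in WT 55 to 97. Leaving out a library of the genotype used for the choice changed the chosen genes. Leaving out a library of the genotype read changed only the fit. The 55 came without WT control 3, from the same 71 genes of which 68 were called with all WT libraries. No result changed sign under the settings tried other than the balance over both media given here. No paired analysis was possible because replicate numbers follow the order of deposit and the labels tie no libraries of different groups to each other. Depth limits the genes near or under 1 CPM on control medium, whose ratios rest on few counts.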
